A study of Mus musculus with 10 samples.

Results

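The vascular basement membrane is the sheet of matrix on which endothelial cells sit, and 10 genes that encode its main structural chains were followed in meningeal lymphatic endothelial cells (LECs) of female mice. The 10 genes, Col4a1, Col4a2, Col15a1, Col18a1, Lama4, Lama5, Lamb1, Lamc1, Nid1 and Hspg2, were taken by symbol from the 55401 genes of the deposited count table, and each matched exactly 1 row. RNA was sequenced from LECs of naive C57BL/6 mice (C57BL/6J in the study's methods), aged 3 months, and from mice of the same strain and age exposed to sub-chronic variable stress (SCVS), in which foot shock, tail suspension and restraint alternated over 6 days. There were 5 replicates in each group. Each replicate is 1 library from cells of 3 to 4 meninges, sorted as CD45-CD31+podoplanin+, so that a value is a property of a pool and not of an animal. All mice were female, the labels name no transgene, and the naive mice were the controls throughout.

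The basement membrane is built from a few interlocking polymers. Type IV collagen heterotrimers of Col4a1 and Col4a2 chains form a covalent network, and laminin heterotrimers of 1 alpha, 1 beta and 1 gamma chain form a sheet on the cell side that integrins and dystroglycan bind. Nidogen (Nid1) and perlecan (Hspg2) tie the 2 polymers together. The multiplexins Col15a1 and Col18a1 are collagen and proteoglycan hybrids of the outer side of the sheet, and Col18a1 is the source of the fragment endostatin. Lama4 and Lama5 are the usual endothelial alpha chains. Blood vessels have a continuous basement membrane shared with mural cells, whereas initial lymphatics are known for a thin and interrupted one.

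None of the 10 genes differed between SCVS and naive mice beyond the spread of the replicates, and the spread itself was wide and shared. 1 naive library held hardly any transcript of these genes, the other 9 libraries held all or nearly all of them, and Col4a1 and Col4a2 moved together across libraries. The 2 type IV collagen genes lie head to head on chromosome 8 and are transcribed away from each other. The choice to show the sequence between and around their starts rests on 1 comparison. Over all 10 libraries these 2 genes followed each other more closely than the other 2 pairs of partner chains that were compared. By rank, without the 2 farthest libraries of each pair, they were no closer than Lamb1 and Lamc1. Hspg2 gave as high an r with the sum of the other 9 genes, though a sum is not a partner chain. The part of the sequence in how Col4a1 and Col4a2 moved was not tested. Each line below is the window of 250 bases before and 50 bases after the start that the RefSeq promoter table (GRCm38.p6) lists for the gene, which need not be the outermost end of the gene record, written 5′ to 3′ on the strand of that gene. Capitals mark the GC box, GGGCGG or its reverse complement CCGCCC, and the CCAAT box, CCAAT or its reverse complement ATTGG. The Col4a1 line is chr8:11312777-11313076 on the minus strand and the Col4a2 line is chr8:11312555-11312854 on the plus strand.
Col4a1: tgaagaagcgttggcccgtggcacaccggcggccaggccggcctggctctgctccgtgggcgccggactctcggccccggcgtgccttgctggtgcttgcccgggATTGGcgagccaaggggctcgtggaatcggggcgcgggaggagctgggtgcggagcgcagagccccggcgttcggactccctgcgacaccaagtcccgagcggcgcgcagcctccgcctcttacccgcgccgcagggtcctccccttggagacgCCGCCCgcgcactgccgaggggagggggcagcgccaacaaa
Col4a2: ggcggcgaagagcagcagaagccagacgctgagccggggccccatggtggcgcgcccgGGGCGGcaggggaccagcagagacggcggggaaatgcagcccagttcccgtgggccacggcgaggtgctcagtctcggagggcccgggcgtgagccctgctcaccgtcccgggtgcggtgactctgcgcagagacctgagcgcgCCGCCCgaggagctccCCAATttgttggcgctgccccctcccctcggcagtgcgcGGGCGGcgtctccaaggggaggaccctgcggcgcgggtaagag
The windows share 78 bases, which hold 1 GC box and no CCAAT box. In all, the Col4a1 window held 1 GC box and 1 CCAAT box, and the Col4a2 window held 3 GC boxes and 1 CCAAT box. Windows were found for 8 of the 10 genes (not for Lama4 and Lamc1), 9 windows in all, since Col18a1 had 2. At least 1 GC box was present for 7 of these 8 genes and a CCAAT box for 5, against 35.7% and 37.4% of all 32851 windows searched on both strands in the same way. These are counts of genes beside shares of windows. A gene was counted if any of its windows held the box, and 1 of the 2 Col18a1 windows held neither. No TATAAA and no CCGGAAGT, an ETS factor motif, was present in the windows of the 8 genes, and these letters were present on either strand in 13.6% and 3.89% of all windows. The windows of the 8 genes were 52.3% to 74.0% G and C, and the median over all windows was 52.7%. Such matches describe the letters of the windows and do not show that a factor binds there.

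The libraries held between 9984743 and 14094155 counts, so that 3 counts, taken as the floor, correspond to 0.213 to 0.3005 CPM, where CPM is the count scaled to a library total of 1000000. Naive replicate 5 stood apart from the rest. Its summed level of 6 genes of all endothelial cells (Pecam1, Cdh5, Tie1, Tek, Egfl7 and Erg) was 151 CPM, against 1710 to 4156 CPM in the other 9 libraries, and its median correlation with the other libraries over all tested genes was 0.522, against 0.629 to 0.675. The 8 lymphatic markers were Prox1, Lyve1, Flt4, Pdpn, Mmrn1, Ccl21a, Reln and Tbx1. They summed to 60.8 CPM in naive replicate 1, against 185 CPM in naive replicate 5 and 460 to 3136 CPM in the other 8. In naive replicate 1 Prox1, Pdpn and Tbx1 had 0 counts. There 4 of the 8 markers had more than 3 counts, among them Flt4 at 376 and Mmrn1 at 165. Prox1 was also low in SCVS replicates 1 and 5, at 15 and 2 counts. In each of these libraries 7 of the 8 lymphatic markers had more than 3 counts, among them Pdpn at 887 and 198. Naive replicate 5 had 6 of the 8 above 3 counts, among them Prox1 at 843 and Pdpn at 351, whereas Lyve1 had 1 count and Tbx1 had 0. Blood endothelial markers (Aplnr, Cldn5, Flt1, Ly6c1, Plvap, Slco1a4, Sox17 and Vwf) summed to more than the lymphatic markers in 10 of 10 libraries. Their sum was 313 to 10273 CPM in naive and 5219 to 9324 CPM in SCVS libraries. In naive replicate 5, 3 of these 8 markers had more than 3 counts, and Sox17, Vwf and Aplnr had 0. The 9 mural markers summed to 823 to 7809 CPM in naive and 458 to 5939 CPM in SCVS libraries. In naive replicate 5 their sum was 5078 CPM, nearly all of it from 67407 counts of Rgs5, with 6 of the 9 markers at 0. The 6 fibroblast markers summed to 40.4 to 1295 CPM and 3.69 to 1472 CPM. Macrophage markers, 6 in number, summed to 0.480 to 522 CPM in naive and 148 to 3583 CPM in SCVS libraries. The 6 erythroid markers summed to 4.32 to 46.7 CPM in naive and 10.9 to 4915 CPM in SCVS libraries. The highest macrophage sum was that of SCVS replicate 4 and the highest erythroid sum that of SCVS replicate 5. Since blood endothelial, mural and fibroblast cells also make basement membrane, fewer cells of a type and less RNA per cell cannot be told apart in these pools, and the part of these cells in the values below was not tested.

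The plot of each gene by library shows the data on which the comparison rests.

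**Figure D1:**
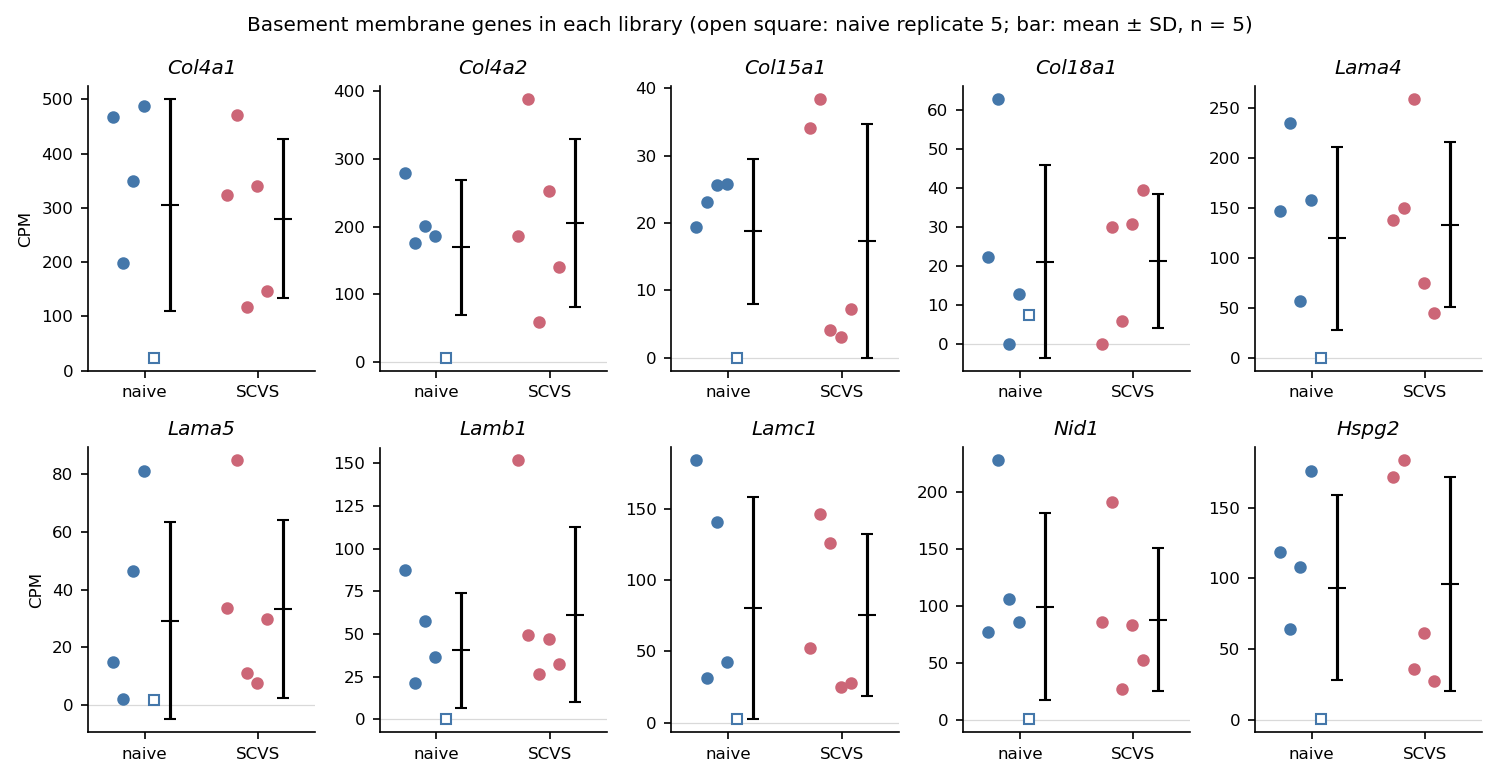
Level of each of the 10 basement membrane genes in CPM (linear axis, one scale per gene) in 5 naive and 5 SCVS libraries, 1 point per library in the order of the replicate numbers, with the mean and SD of each group beside the points. Naive replicate 5, drawn as an open square, is the lowest library for 9 of the 10 genes, and the groups overlap for every gene.

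Col4a1 (ENSMUSG00000031502) and Col4a2 (ENSMUSG00000031503) encode the 2 chains of the ubiquitous type IV collagen trimer. Their RefSeq records in GRCm38.p6 run on chromosome 8 from 11198423 to 11312889 and from 11312805 to 11449287, and overlap over 85 bases at their starts. Positions of the other genes are from the same records. Col4a1 stood at 468, 197, 350.2, 487 and 23.3 CPM in naive replicates 1 to 5 and at 324, 471, 117, 339.9 and 148 CPM in the 5 SCVS replicates. Apart from naive replicate 5, the lowest libraries were SCVS replicates 3 and 5, and the other SCVS libraries lay among the naive ones. The group means were 305 ± 195 and 279.9 ± 146 CPM (SD, n = 5 each). Its log2 fold change, SCVS over naive, was −0.20 (standard error 0.64), and −0.49 (standard error 0.42) without naive replicate 5. Col4a2 stood at 279, 176, 201, 185 and 5.63 CPM in the naive replicates and at 186, 389, 58.9, 252 and 139.7 CPM in the SCVS replicates. The highest and the second lowest library were both SCVS libraries, replicates 2 and 3, so that the SCVS values spanned those of naive replicates 1 to 4. Means of 169 ± 100.2 and 205 ± 125 CPM (SD, n = 5 each) gave a log2 fold change of 0.19 (standard error 0.74), which was −0.11 without naive replicate 5.

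The laminin chains did not order the libraries as the type IV collagen chains did. Lama4 (ENSMUSG00000019846, chromosome 10, 38965515 to 39110188), the alpha chain of laminin-411, stood at 147, 235, 57.4, 158 and 0.225 CPM in the naive and at 138, 149.7, 259, 75.0 and 45.5 CPM in the SCVS replicates. SCVS replicate 3, which was low in Col4a1 and Col4a2, was the highest of all 10 libraries in Lama4. The means were 119.7 ± 91.8 and 134 ± 82.5 CPM (SD, n = 5 each), with a log2 fold change of 0.13 (standard error 1.00). Lama5 (ENSMUSG00000015647, chromosome 2, 180176373 to 180225904), the alpha chain of laminin-511, stood at 14.7, 2.11, 46.6, 81.1 and 1.5 CPM in the naive and at 33.6, 84.9, 11.2, 7.48 and 29.9 CPM in the SCVS replicates. Each group held 1 library above 80 CPM and 1 or more below 10 CPM, and the log2 fold change was 0.10 (standard error 1.11). Its means were 29.2 ± 34.3 and 33.4 ± 30.9 CPM (SD, n = 5 each).

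Lamb1 (ENSMUSG00000002900, chromosome 12, 31265146 to 31329644), the beta chain of both trimers, stood at 87.3, 21.1, 57.7, 36.5 and 0 CPM in the naive and at 152, 49.2, 26.9, 47.1 and 32.3 CPM in the SCVS replicates. SCVS replicate 1 lay far above the other 4 of its group, which fell within the range of the naive replicates. Means of 40.5 ± 33.6 and 61.4 ± 51.3 CPM (SD, n = 5 each) gave a log2 fold change of 0.53 (standard error 1.16), the largest of the 10 genes in absolute value. Without SCVS replicate 1 it was −0.13. Lamc1 (ENSMUSG00000026478, chromosome 1, 153218922 to 153332786), the gamma chain that most laminin trimers share, stood at 184, 31.4, 141, 42.4 and 2.40 CPM in the naive and at 52.7, 147, 126, 25.2 and 27.9 CPM in the SCVS replicates. In both groups 2 libraries lay above 100 CPM and the others at or below 60 CPM. The group means were 80.3 ± 78.1 and 75.8 ± 57.0 CPM (SD, n = 5 each), and the log2 fold change was −0.18 (standard error 0.90).

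The 2 linkers were nearly absent from naive replicate 5. Nid1 (ENSMUSG00000005397, chromosome 13, 13437602 to 13512275), which binds the laminin gamma chain and type IV collagen, stood at 76.7, 228, 106, 85.5 and 0.0750 CPM in the naive and at 85.6, 192, 26.5, 82.9 and 52.3 CPM in the SCVS replicates. The value of naive replicate 5 was a single count, and the highest naive and the highest SCVS library were replicate 2 of either group. Its means were 99.3 ± 82.3 and 87.8 ± 62.9 CPM (SD, n = 5 each), with a log2 fold change of −0.26 (standard error 1.05) that was −0.57 (standard error 0.54) without naive replicate 5. Hspg2 (ENSMUSG00000028763, chromosome 4, 137468751 to 137570630), the heparan sulfate proteoglycan perlecan, stood at 119, 64.3, 108, 176 and 0.0750 CPM in the naive and at 172, 183, 35.5, 61.0 and 27.3 CPM in the SCVS replicates. Again naive replicate 5 held a single count, and of the SCVS libraries 2 lay close to naive replicate 4, the highest of its group, and 3 lay below each of naive replicates 1 to 4. The means of 93.5 ± 65.7 and 95.8 ± 75.8 CPM (SD, n = 5 each) gave a log2 fold change of −0.05 (standard error 1.06).

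The multiplexins were the least abundant by CPM together with Lama5. Col15a1 (ENSMUSG00000028339, chromosome 4, 47207655 to 47313167), a collagen of the outer face of vascular basement membranes, stood at 19.4, 23.1, 25.6, 25.8 and 0 CPM in the naive and at 34.1, 38.4, 4.06, 3.02 and 7.21 CPM in the SCVS replicates. Naive replicates 1 to 4 lay close together, whereas the SCVS libraries fell into 2 above and 3 below all 4 of them. The means were 18.8 ± 10.8 and 17.4 ± 17.4 CPM (SD, n = 5 each), and the log2 fold change was −0.22 (standard error 1.39). Col18a1 (ENSMUSG00000001435, chromosome 10, 77052178 to 77166530), the precursor of endostatin, stood at 22.4, 62.9, 0, 12.8 and 7.43 CPM in the naive and at 0.0710, 29.9, 5.84, 30.8 and 39.5 CPM in the SCVS replicates. It was the one gene of the 10 for which naive replicate 5 was not the lowest library, since naive replicate 3 held 0 counts and SCVS replicate 1 held 1 count. Group means of 21.1 ± 24.7 and 21.2 ± 17.2 CPM (SD, n = 5 each) gave a log2 fold change of −0.02 (standard error 1.56).

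The question of the comparison was whether SCVS changed the expression of these genes in meningeal LECs. All 10 genes passed the filter on low counts (a count above 5 in 3 or more libraries) and were tested among 14815 genes with edgeR's quasi-likelihood test. At an adjusted p under 0.1, 0 of the 10 genes were called, beside 0% of all genes tested, and the adjusted p of each of the 10 was 1.00. At an unadjusted p under 0.05, edgeR also called 0 of the 10 genes, beside 3.1% of all genes, and DESeq2 and limma with voom called 0 of the 10 at either threshold. Of all genes, DESeq2 called 0.769% at an adjusted p under 0.1 and 4.46% at an unadjusted p under 0.05, and limma with voom called 0.0135% and 4.97%. The unadjusted p of the 10 genes lay between 0.657 and 0.988 in edgeR, and between 0.532 and 0.976 in a two-sided exact permutation test of CPM, 5 libraries against 5. In edgeR 6 of the 10 genes had a log2 fold change below 0, beside 51.8% of all genes, with a median of −0.04 over the 10 genes and of −0.03 over all genes. The groups overlapped in CPM for each of the 10 genes, and did not overlap for 0.628% of all genes.

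The intervals of these differences were wide. A range of 2 standard errors either side of the log2 fold change reached from −1.49 to 1.08 for Col4a1 and from −1.28 to 1.67 for Col4a2, the narrowest of the 10. For Col18a1, the widest, it reached from −3.15 to 3.11. Without naive replicate 5, the ranges were −1.34 to 0.35 for Col4a1 and −1.65 to 0.52 for Nid1, and that for Col18a1 was −3.58 to 3.13. With this library left out 9 of the 10 genes had a log2 fold change below 0, beside 6918 of 14191 tested genes. Lamb1 was the exception, the median over the 10 genes was −0.30, and 0 of the 10 genes were called. The 6 genes of all endothelial cells also had log2 fold changes below 0 without naive replicate 5, with a median of −0.24, and the median over all tested genes was then 0.03. Of the 8 blood endothelial markers 7 were below 0 without that library, with a median of −0.39. In edgeR 3 of the 8 had an unadjusted p under 0.05, beside 595 of the 14191 genes tested in that fit. Mural and fibroblast markers had medians of −1.96 and −3.01, and the lymphatic markers a median of 0.70. Over all 10 libraries the medians were −0.10, −1.65, −2.69 and 0.87 in the same order, and edgeR called none of these markers at an adjusted p under 0.1 in either fit. Macrophage and erythroid markers had medians of 2.00 and 6.02 over all 10 libraries, and edgeR called none of them. At that threshold DESeq2 called 1 of the 9 mural and 1 of the 6 macrophage markers, beside 0.769% of all genes. It called no marker of the other lists. With both naive replicate 1 and naive replicate 5 left out, 7 of the 10 genes were below 0, beside 6598 of 13794 tested genes. The median log2 fold change of the 10 genes was then −0.30, and edgeR called none of the 10 at either threshold.

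**Figure D2:**
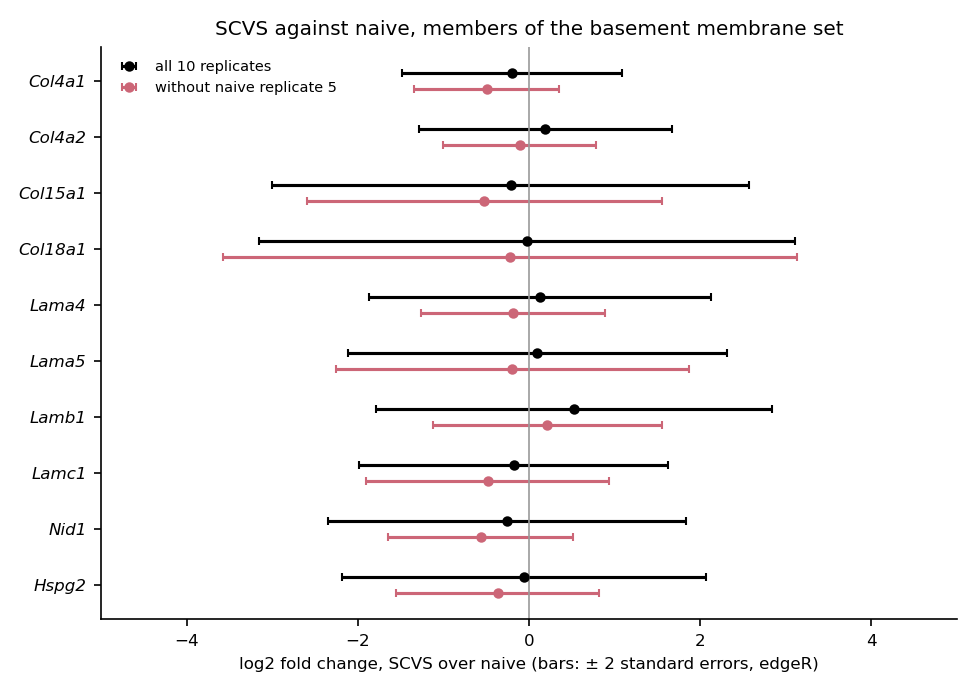
Log2 fold change of each basement membrane gene, SCVS over naive, from edgeR's quasi-likelihood fit, with bars of 2 standard errors either side, over all 10 libraries (black) and without naive replicate 5 (red). Every bar crosses 0, and leaving out naive replicate 5 moves every point to the left and shortens the bar of each gene except Col18a1.

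Summed over the 10 genes, the level was 1417, 1041, 1094, 1291 and 40.7 CPM in the 5 naive replicates, in the order of their numbers, and 1178, 1733, 672, 925 and 549 CPM in the 5 SCVS replicates. Naive replicates 1 to 4 lay inside the SCVS range, and naive replicate 5 lay far below it. The mean sum was 977 ± 545 CPM in naive and 1011 ± 470.5 CPM in stressed mice (SD, n = 5 each), and 1211 ± 175 CPM in naive mice without replicate 5 (SD, n = 4). Hence the ratio of the SCVS mean to the naive mean was 1.04 with that library and 0.835 without it. In naive replicate 5, 9 of the 10 genes were at their lowest value of the series, beside 11.1% of all tested genes and 15.4% of those with a mean of at least 10 CPM, and 5 of the 10 genes had more than 3 counts there. In the other libraries 9 or 10 of the 10 genes had more than 3 counts.

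The sum followed the endothelial genes as a total, though in naive replicate 5 only part of it did. Divided by the summed CPM of the 6 genes of all endothelial cells, it was 0.510, 0.332, 0.282, 0.398 and 0.270 in the 5 naive replicates, in the order of their numbers, and 0.372, 0.417, 0.393, 0.306 and 0.250 in the 5 SCVS replicates. Naive replicate 5, which stood apart in CPM, lay within the range of the others by this ratio, and the highest ratio belonged to naive replicate 1, the library with 0 counts of Prox1. The mean ratio was 0.358 ± 0.0986 in naive and 0.348 ± 0.0685 in SCVS mice (SD, n = 5 each), a difference smaller than the SD of either group. Taken alone, the laminin chains did not keep that ratio in naive replicate 5, where their sum was 0.0274 of the endothelial sum, against 0.0512 to 0.248 in the other libraries. The linkers Nid1 and Hspg2 together held 0.150 CPM in naive replicate 5, against 62.0 to 375 CPM in the other libraries. Type IV collagen, 71.2% of the summed counts there, stood at 0.192 of the endothelial sum, against 0.103 to 0.269 in the other libraries.

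**Figure D3:**
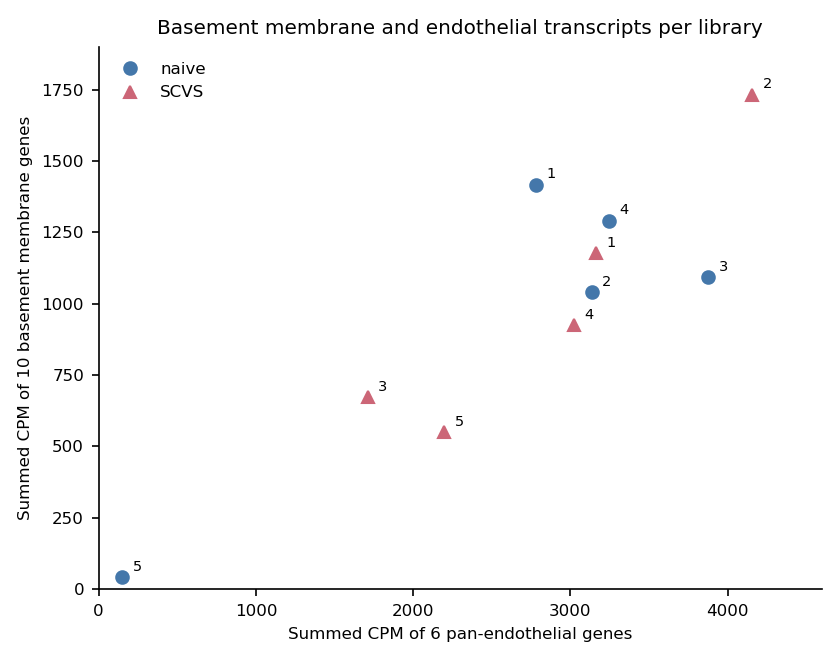
Summed CPM of the 10 basement membrane genes (vertical axis) against the summed CPM of Pecam1, Cdh5, Tie1, Tek, Egfl7 and Erg (horizontal axis), 1 point per library, numbered by replicate. Naive replicate 5 lies near the origin at 151 and 40.7 CPM, and SCVS replicates 3 and 5 lie below the other 7 libraries on both axes.

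Over the 10 libraries, the 5 genes whose log2(CPM + 1) was most like that of the summed members, among 9965 genes with a mean of at least 10 CPM, were Rasip1, Cdh5, Podxl, Rapgef3 and Pecam1. Their Pearson r with the sum was 0.983 to 0.986, and 0.840 to 0.953 without naive replicate 5, given as a description of libraries that share their depth and cell content. Cdh5 encodes VE-cadherin and Pecam1 encodes CD31, an antigen of the sort, and both are among the 6 endothelial genes above. Rasip1 and Rapgef3 (EPAC1) act in Rap and Ras signaling of endothelial junctions, and Podxl encodes the surface sialomucin podocalyxin. Of the members themselves, Hspg2 followed the sum of the other 9 genes most closely, with r = 0.977, and 0.894 without naive replicate 5. Col18a1 hardly followed it, with r = 0.0361, and −0.13 without naive replicate 5. For Lama4 the r of 0.866 became 0.0426 when that library was left out.

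The make-up of the summed counts differed widely between libraries of a group. Col4a1 and Col4a2 made up 52.7, 35.9, 50.4, 52.1 and 71.2% of the summed counts of the 10 genes in the 5 naive replicates, in the order of their numbers, and 43.3, 49.6, 26.3, 64.0 and 52.3% in the 5 SCVS replicates. SCVS replicate 3 had the lowest share of type IV collagen and, at 63.0%, the highest share of the 4 laminin chains, which held 10.1% to 31.9% in the other 9 libraries. Nid1 and Hspg2 held 0.369% in naive replicate 5 and 9.23% to 28.1% elsewhere. Col15a1 and Col18a1 held 18.3% in naive replicate 5, all of it from 99 counts of Col18a1, and 1.47% to 8.50% elsewhere. The mean share of type IV collagen was 52.4 ± 12.6% in naive and 47.1 ± 13.9% in SCVS mice (SD, n = 5 each), and that of the laminin chains was 24.2 ± 8.12% and 32.3 ± 18.0% (SD, n = 5 each).

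**Figure D4:**
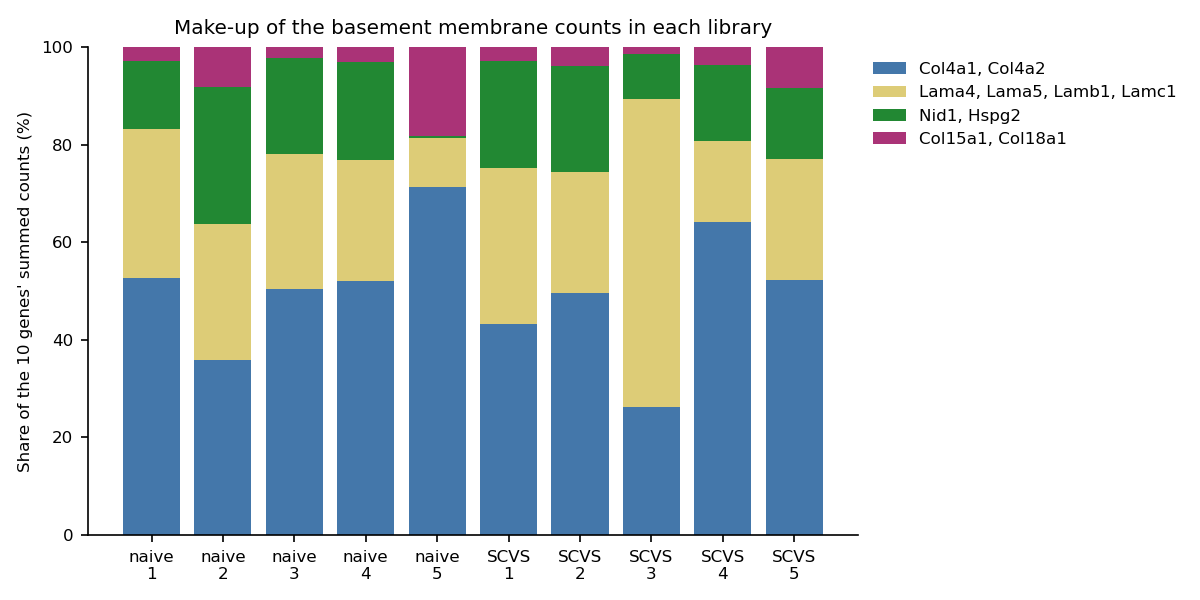
Share of the summed counts of the 10 basement membrane genes, in percent, taken by type IV collagen chains, laminin chains, linkers and multiplexins in each of the 10 libraries. The laminin share is highest in SCVS replicate 3 (63.0%), and the linkers all but vanish in naive replicate 5 (0.369%).

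Per kilobase of merged exon in the mm9 annotation, the mean level over the 10 libraries was highest for Col4a1, at 42.9 ± 24.0 CPM per kb (SD, n = 10), followed by Col4a2 at 28.3 ± 16.3 CPM per kb (SD, n = 10) and Nid1 at 15.5 ± 11.5 CPM per kb (SD, n = 10). Col4a1 lay above Col4a2 in 10 of 10 libraries, Col4a2 above Nid1 in 9 and Nid1 above Lama4 in 8. Lama4 (10.5 CPM per kb), Lamc1 (9.43), Hspg2 (6.59) and Lamb1 (5.14) came next, and neighbours in this order changed places in 3 to 5 of the 10 libraries. Col18a1 (3.01 CPM per kb), Col15a1 (2.85) and Lama5 (2.75) were the lowest and could not be told apart by their spread. With the longest annotated transcript as the length, Lama4 stood at 20.9 CPM per kb and above Nid1. Lamb1 then stood at 8.81 CPM per kb and above Hspg2 at 6.67, so that the places of both depend on which exons are counted.

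Chains that belong to 1 complex were compared over the libraries. Col4a1 and Col4a2 moved together in log2(CPM + 1), with Pearson r = 0.956 (permutation p = 0.00014, adjusted p = 0.00042 over 3 relations) and Spearman rho = 0.806 (permutation p = 0.00739, adjusted p = 0.0222) over 10 libraries. Without naive replicate 5 and SCVS replicate 3, the libraries farthest from the Col4a1 median, r was 0.718 (permutation p = 0.0426, n = 8) and rho was 0.619. Without naive replicate 5 alone r was 0.84 (permutation p = 0.00116, n = 9). Hspg2 followed the sum of the other 9 genes with r = 0.977, and 0.894 without naive replicate 5. That r sets 1 gene against a sum that includes Col4a1 and Col4a2, so it is a measure unlike that of a pair. Whether such closeness is particular to Col4a1 and Col4a2 was not tested. No background of other gene pairs was computed, and the libraries share their cell content. Reads from the 85 overlapping bases cannot be assigned to 1 of the 2 genes, since the use of strand in the counting is not stated. The Col4a1 count was 1.67, 1.12, 1.75, 2.63 and 4.15 times that of Col4a2 in the 5 naive replicates, in the order of their numbers, and 1.74, 1.21, 1.99, 1.35 and 1.06 times in the 5 SCVS replicates. Col4a1 exceeded Col4a2 in each library, and the 2 highest ratios belonged to naive replicates 4 and 5, so that the groups overlapped. The mean ratio was 2.26 ± 1.18 in naive and 1.47 ± 0.388 in SCVS mice (SD, n = 5 each), and 1.79 ± 0.623 in naive mice without replicate 5 (SD, n = 4).

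Over all 10 libraries the laminin partners were less close by r and by rho. Lamb1 and Lamc1 gave r = 0.794 (permutation p = 0.0206, adjusted p = 0.0309) and rho = 0.648 (permutation p = 0.0489, adjusted p = 0.0734). By Pearson r this relation rested on the extreme libraries. Without naive replicate 5 and SCVS replicate 1, r was 0.566 (permutation p = 0.149, n = 8), and without naive replicate 5 it was 0.312 (permutation p = 0.415, n = 9). By rank the relation changed little, since rho without naive replicate 5 and SCVS replicate 1 was 0.619. That equals the rho of Col4a1 and Col4a2 without their 2 farthest libraries. Nid1 and Lamc1, a ligand and the chain it binds, gave r = 0.702 (permutation p = 0.0587, adjusted p = 0.0587) and rho = 0.345 (permutation p = 0.331, adjusted p = 0.331), and r was −0.08 (permutation p = 0.846, n = 9) without naive replicate 5. No p in this family is independent of the choice of the genes. With each value taken as its deviation from the mean of its group and permuted exactly within groups, r was 0.964 for Col4a1 and Col4a2 (exact p = 0.00056, adjusted p = 0.0017), 0.798 for Lamb1 and Lamc1 (exact p = 0.0408, adjusted p = 0.0613) and 0.694 for Nid1 and Lamc1 (exact p = 0.130, adjusted p = 0.130). Without naive replicate 5 these r were 0.845, 0.337 and −0.16 (exact adjusted p = 0.0208, 0.619 and 0.714).

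The choice between the 2 laminin alpha chains differed widely between libraries of a group. Lama4 took 90.9, 99.1, 55.2, 66.1 and 13.0% of the summed Lama4 and Lama5 counts in the 5 naive replicates, in the order of their numbers, and 80.5, 63.8, 95.9, 90.9 and 60.3% in the 5 SCVS replicates. Lama4 held the larger part in 9 of 10 libraries. The exception, naive replicate 5, had only 23 counts of both genes, with a 95% Wilson interval of 4.54% to 32.1% that covers counting error only. In the other libraries the intervals were narrow, for example 52.6% to 57.7% in naive replicate 3 and 98.7% to 99.4% in naive replicate 2, which is narrower than the spread between replicates, although amplified reads are not independent molecules. The mean share was 64.9 ± 34.0% in naive and 78.3 ± 15.9% in SCVS mice (SD, n = 5 each), and 77.8 ± 20.6% in naive mice without replicate 5 (SD, n = 4).

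**Figure D5:**
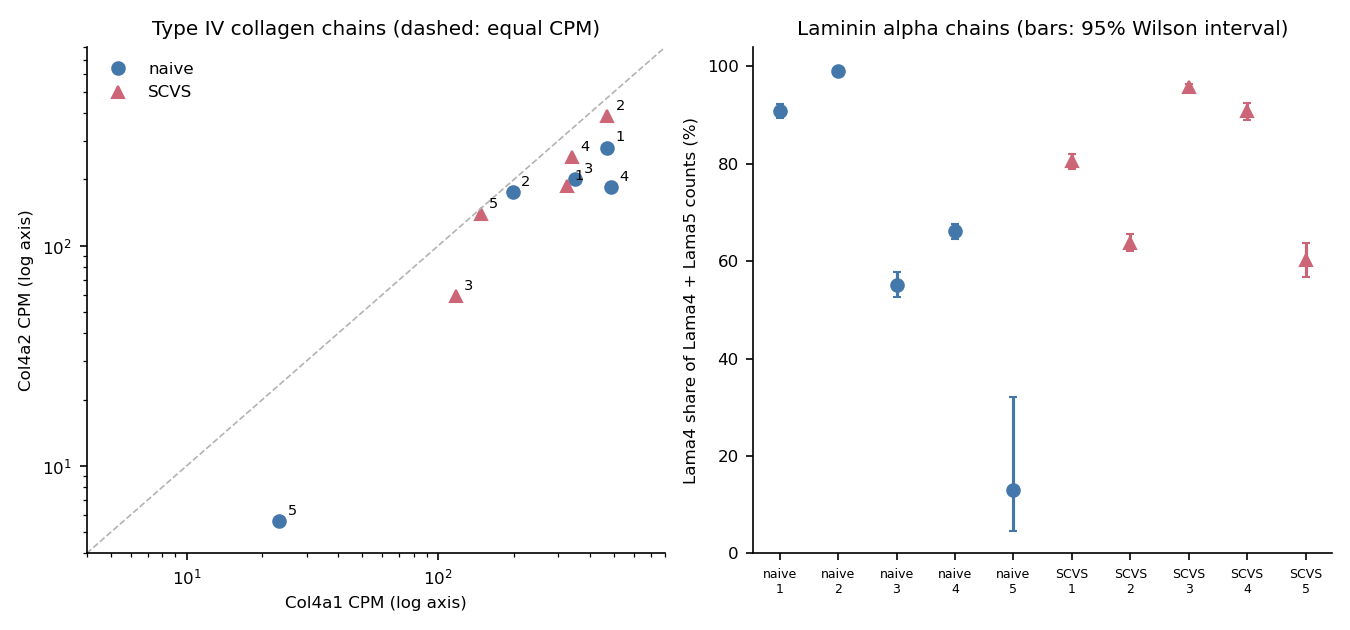
Left, Col4a2 against Col4a1 in CPM on log axes, 1 point per library numbered by replicate, with a dashed line of equal CPM below which all 10 libraries lie. Right, the share of Lama4 in the summed Lama4 and Lama5 counts in percent, with 95% Wilson intervals, which runs from 13.0% in naive replicate 5 to 99.1% in naive replicate 2 and overlaps between the groups.

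Genes around the 10 chains were read from the same fit. Of 14 other basement membrane chains, 11 were tested, 0 passed an adjusted p under 0.1, and 3 had a log2 fold change above and 8 below 0, with a median of −0.49. Lamc3, a laminin gamma chain, had the smallest p of those below 0 (edgeR, unadjusted p = 0.125), and its counts were 493, 0, 0, 0 and 0 in the naive and 2, 0, 9, 8 and 3 in the SCVS replicates, so that 1 naive library held nearly all of them. Col4a4, a chain of the specialised type IV collagen of kidney and lung, had the smallest p of those above 0 (edgeR, unadjusted p = 0.370), with 4.13 ± 6.29 CPM in naive and 13.0 ± 14.6 CPM in stressed mice (SD, 5 libraries per group).

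All 14 genes of collagen folding, modification, export and cross-linking were tested, and 0 passed, with 6 above and 8 below 0 and a median of −0.14. Colgalt1, a collagen galactosyltransferase, had the smallest p of those above 0 and Mia3, a receptor that loads collagen for export, of those below. Colgalt1 had a log2 fold change of 0.74 ± 0.59 (SE) with an unadjusted p of 0.234 in edgeR, and Mia3 of −0.79 ± 1.03 (SE) with an unadjusted p of 0.457.

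Among 10 receptor genes, all were tested and 0 passed, with 4 above and 6 below 0 and a median of −0.09. Itga3, the alpha chain of the laminin receptor integrin α3β1, stood at 41.5 ± 33.0 CPM in naive and 9.36 ± 7.28 CPM in stressed mice (SD, 5 libraries per group). Its counts of 30, 1004, 172, 647 and 880 in the naive and 25, 154, 38, 259 and 97 in the SCVS replicates overlapped, and its log2 fold change of −2.18 ± 1.05 (SE) had an unadjusted p of 0.0615 in edgeR and an adjusted p of 1.00. Itga2, a collagen receptor chain, had the smallest p of those above 0, with a log2 fold change of 1.65 ± 2.41 (SE) and an unadjusted p of 0.508 in edgeR. Of 8 genes of matrix turnover, 7 were tested and 0 passed, with 5 above and 2 below 0 and a median of 0.43. Hpse, the heparanase that cuts the chains of perlecan, had counts of 1, 121, 1, 0 and 110 in the naive and 1906, 585, 0, 0 and 742 in the SCVS replicates, high in 3 SCVS libraries and 0 in the other 2. Its log2 fold change was 3.79 ± 2.28 (SE), with an unadjusted p of 0.123 in edgeR. Mmp2, a gelatinase that also cuts type IV collagen, had 1307 counts in naive replicate 2 and at most 90 elsewhere, and a log2 fold change of −3.37 ± 2.67 (SE) with an unadjusted p of 0.233 in edgeR. Mmp9 was removed by the filter.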

How the data were processed

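LECs were sorted from the meninges, and the authors amplified their RNA with a whole-transcriptome kit for low input. Per the paper's methods they aligned the reads to mm9 with HISAT2 2.0.1, whereas the submitters' processing notes name GRCm38, cutadapt 1.9.1 and HTSeq 0.6.1. Of the 55401 gene identifiers in the table, 58.8% are in the mm9 annotation (GENCODE M1), so positions and promoter windows are given from RefSeq in GRCm38.p6, and exon lengths from GENCODE M1. The authors deposited raw counts per gene and library, without normalization. The use of strand in the counting is not given in the sources used here, and opposite-strand genes overlap 6 of the 10 members in mm9 (all but Lama4, Lama5, Nid1 and Hspg2).

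CPM were counts over the total of a library. A gene was tested where its count was above 5 in 3 or more libraries, with edgeR 4.0.16 (R 4.3.3), using TMM scaling, the quasi-likelihood test and Benjamini-Hochberg adjustment over 14815 genes, at an adjusted p under 0.1 as in the study's methods. Standard errors are the log2 fold change, without its sign, over the square root of F. Alternatives were DESeq2 1.42.0, limma 3.58.1 with voom, other scalings and filters, an exact permutation test, a replicate block and leaving out each library. Leaving out naive replicates 1 and 5 together, the longest transcript as length, and correlations of deviations from the group means were added after the values had been seen. Correlations used 100000 permutations (NumPy 2.4.6, Python 3.11.15). The scripts were tested on simulated data, in which recovery of changed genes was required only at a low spread. In edgeR the common biological coefficient of variation was 1.59, so that check does not show how large a change these data could detect.

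The members and the lists were chosen with earlier results of these data known, and no score over them was tested. Named are the 10 members, in each other list the gene with the smallest p in each direction, and the 5 genes most like the members' sum. Genes removed by the filter and genes of the marker lists were named after their values were seen. No label gives a cohort or a batch, and p-values measure the spread between pools.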

Additional observations from a re-analysis of the deposited data

Results flagged for a closer look

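Of 28 groups of 5 values examined (the 10 genes, their sum, its ratio to the endothelial genes, the Col4a1 to Col4a2 ratio and the Lama4 share, in each group), 3 held a library whose gap to the next exceeded 0.71 of the range of its group. About 1 in 20 such groups does so by chance where the values are independent and normally distributed. That rate was not measured for these values, and the groups are not independent, since the sum contains the 10 genes. Col15a1 was at 0 CPM in naive replicate 5, whereas the other naive replicates lay between 19.4 and 25.8 CPM. Lamb1 was at 152 CPM in SCVS replicate 1, against 26.9 to 49.2 CPM in the other SCVS replicates. The summed level of the 10 genes was 40.7 CPM in naive replicate 5 and 1041 to 1417 CPM in the other naive replicates. In naive replicate 5 the 6 genes of all endothelial cells summed to 151 CPM, and their part in these values was not tested.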

How the results depend on the processing

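No alternative called any of the 10 genes or any gene of the 4 related lists at an adjusted p under 0.1, whatever the scaling, the filter, the tool, the replicate block or the library left out. Over all tested genes, DESeq2 called 114 and limma with voom 2, against 0 in edgeR. The smallest exact permutation p that 5 against 5 libraries allow is 0.00794. After Benjamini-Hochberg adjustment over 14815 genes, it passes the threshold only where many genes reach it together. That test called 0 genes, and it could not have called a gene by that gene's values alone. The direction of the differences was not stable. Of the 190 log2 fold changes of the 10 genes under the alternatives, 49 had the opposite sign to the reported one, the largest of them 1.52, and the smallest adjusted p was 0.914. The number of the 10 genes with a log2 fold change below 0 was 6. It became 0 in limma with voom and 1 with the replicate block, beside 6812 and 6978 of 14815 tested genes. With 1 library left out it lay between 3 (without naive replicate 1 or without SCVS replicate 4) and 9 (without naive replicate 5). The tested genes below 0 were then 7372 of 14464, 7550 of 14242 and 6918 of 14191 in the same order. In limma with voom the median over all genes was 0.10, against −0.03 in edgeR. There the log2 fold change was 0.32 for Col4a1, 0.74 for Col15a1, 0.34 for Col18a1, 0.72 for Lamc1, 1.41 for Nid1 and 1.52 for Hspg2, and the median over the 10 genes was 0.93. With the replicate block it was 0.15 for Col4a1, 0.86 for Col18a1, 0.48 for Lamc1, 0.22 for Nid1 and 0.52 for Hspg2. Same-numbered replicates deviated from their group means with correlations of −0.02 to 0.15 over all genes. Of the 5 naive replicates 4, all but replicate 3, correlated best with the SCVS replicate of their own number. For naive replicate 5 this correlation was 0.149, against at most 0.0336 with the other SCVS replicates. Whether the numbers mark libraries handled together was not tested. For Col18a1 the value was 0.0124 with DESeq2 size factors in edgeR and in DESeq2, 0.0084 with column totals, and 0.0081 as the log2 ratio of mean CPM + 1, and for Hspg2 it was 0.0357 with column totals and 0.0353 as that ratio. With naive replicates 1 and 5 both left out it was −0.17 for Lama4, −0.46 for Lama5 and 0.0126 for Lamc1. Leaving out each library in turn gave log2 fold changes of −0.49 to 0.0336 for Col4a1, −0.11 to 0.48 for Col4a2, −0.67 to 0.0511 for Col15a1, −0.39 to 0.93 for Col18a1, −0.31 to 0.51 for Lama4, −0.50 to 0.90 for Lama5, −0.13 to 1.05 for Lamb1, −0.50 to 0.40 for Lamc1, −0.69 to 0.28 for Nid1 and −0.38 to 0.28 for Hspg2. The cause of these changes was not tested. The difference in mean summed CPM, SCVS minus naive, was 34.6, −17.2 after TMM scaling, and −199 to 150.1 when each library was left out. Without the 2 libraries farthest from the median of Lamb1, its r with Lamc1 was 0.566, and on deviations from the group means, a choice made after seeing the data, it was 0.798 with an exact adjusted p of 0.0613. A pseudocount of 0.1 left each of the 3 relations on its side of 0.05. Counts were at or under the floor of 3 for 5 of the 10 genes in naive replicate 5, and for Col18a1 in naive replicate 3 and SCVS replicate 1. These libraries held 13329263, 13975282 and 14094155 counts in that order, against 9984743 in the shallowest library, SCVS replicate 5. The cause of the low counts was not tested.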
